A study of Rattus norvegicus with 12 samples.

Results

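A set of 10 genes from the published set of Yap targets, leaving out the Ccn family, were followed through siRNA depletion of Yap, of its paralog Taz (gene symbol Wwtr1) and of both in cultured rat cardiac fibroblasts. They were Ankrd1, Crim1, Fjx1, Axl, Myof, Asap1, F3, Gadd45a, Nt5e and Ptpn14, found in the table by symbol. All 10 were among the 12271 genes of the normalized count table, and all 10 passed the filter on low values that left 11871 genes for testing. When both coactivators were depleted, Ankrd1, Crim1, Fjx1 and Myof fell, Gadd45a rose, Asap1 passed the test with a rise of 0.24 on the log2 scale that lost its call in 9 of the 12 fits leaving out 1 library, and Axl, F3, Nt5e and Ptpn14 did not pass.

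Yap and Taz are transcriptional coactivators that do not bind DNA themselves and reach their target genes mainly through the TEAD family of DNA-binding factors. The kinases Lats1 and Lats2 of the Hippo pathway phosphorylate both proteins, which keeps them in the cytoplasm. In the heart the pathway is known for restraining cardiomyocyte proliferation, and in fibroblasts for its part in activation, stiffness sensing and matrix production.

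Cells came from the heart ventricles of Sprague Dawley rats at postnatal day 2, and all 4 groups were primary cultures of them in serum-containing medium. The title and sample labels call the cells cardiac fibroblasts, whereas the design text of the series speaks of cardiac myocytes. Each group had 3 libraries made from total RNA, and the siRNAs were used at 25 nM each. Collection is given as 48 h after transfection. The study's RNA methods instead place it 48 h after a medium change that followed transfection, so the time is not settled. The negative siRNA group received non-targeting control siRNAs, the Yap siRNA group a pair of siRNAs against Yap, and the Wwtr1 siRNA group a pair against Wwtr1. The Yap+Wwtr1 siRNA group is labelled as a double knockdown, although its treatment label lists the Wwtr1 siRNAs alone. The study's methods list a pair of siRNAs against each gene, but do not give the total dose of this group. Dose and target thus cannot be told apart where it is compared with the single knockdowns. The study states that the 3 replicates came from separate litters, so the p-values below measure the spread between such cultures. The comparisons to negative siRNA share the same 3 control libraries.

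Deposited values are read counts divided by a size factor for each library, called normalized counts here. In each library all values were whole multiples of 1 step, and divided by it they summed to 33.9 M to 41.1 M, taken here as the reads assigned to genes. Yap1 fell on the log2 scale by 2.49 after Yap siRNA (SE 0.22, adjusted p by limma = 0.000271) and by 1.82 in the double knockdown (SE 0.22, adjusted p by limma = 0.000107). In the latter group 713, 739 and 1474 normalized counts of Yap1 remained in replicates 1, 2 and 3, against 2984 to 3776 in negative siRNA cultures. Wwtr1 fell by 2.08 with its own siRNA (SE 0.13, adjusted p by limma = 2.33e-05) and by 1.48 in the double knockdown (SE 0.13, adjusted p by limma = 1.66e-05). All 8 fibroblast markers were present, and their summed level lay between 2571280 and 3753060 normalized counts across libraries. In the double knockdown, where 17.1% of all genes were called higher and 15.6% lower, 3 of the 8 rose and 2 fell. Dcn rose most (2.01, SE 0.39, adjusted p by limma = 0.00211), to between 16321 and 51879 normalized counts against 4425 to 8338 in negative siRNA cultures. Cardiomyocyte markers (8 of 9 in the table) summed to between 42400 and 92921, and 7 endothelial markers to between 1140 and 2485, with 4 of the 7 higher in the double knockdown (Kdr most, 1.79, SE 0.37, adjusted p by limma = 0.00325). None of 8 macrophage markers was called by limma in the double knockdown (1 at an unadjusted p under 0.05, as were 5080 of all 11871 genes). None was called after Wwtr1 siRNA either, where 8.96% of all genes were. The macrophage sum was 20612 to 29640 in negative siRNA cultures, 17669 to 26247 after Yap siRNA and 10856 to 18470 after Wwtr1 siRNA. In the double knockdown it was 6531 to 44352. Of 9 interferon-induced genes found, 9, 8 and 9 rose after Yap siRNA, Wwtr1 siRNA and both, where 3.02%, 5% and 17.1% of all genes did. Their sum was 5583 to 9531 in negative siRNA cultures and 92916 to 122780 in the double knockdown. The part of this change in the results below was not tested. In whole cultures such as these, fewer cells of a type and less RNA per cell cannot be told apart.

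Between 2 and 6 of the 10 targets passed the test in the 3 comparisons to negative siRNA. After Yap siRNA 2 of the 10 fell, Ankrd1 and Fjx1, and none rose, where 4.8% of all genes tested were called (1.78% lower, 3.02% higher). After Wwtr1 siRNA Ankrd1 and Nt5e fell and Gadd45a rose, 3 of 10, against 8.96% of all genes (3.96% lower, 5% higher). In the double knockdown 4 fell and 2 rose, against 32.8% of all genes (15.6% lower, 17.1% higher). The median log2 fold change over the 10 was -0.10, 0.018 and -0.18 in the 3 comparisons, where the median of all genes was -0.0041, 0.0047 and 0.0035. Axl, F3 and Ptpn14 passed in none of these 3 comparisons. With the replicate number as a block and without the double knockdown libraries, 4 passed after Yap siRNA (16.3% of all genes) and 6 after Wwtr1 siRNA (21.7%), F3 among the 4 and Axl among the 6. Fold changes throughout were taken on the log2(normalized count + 1) scale.

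**Figure D1:**
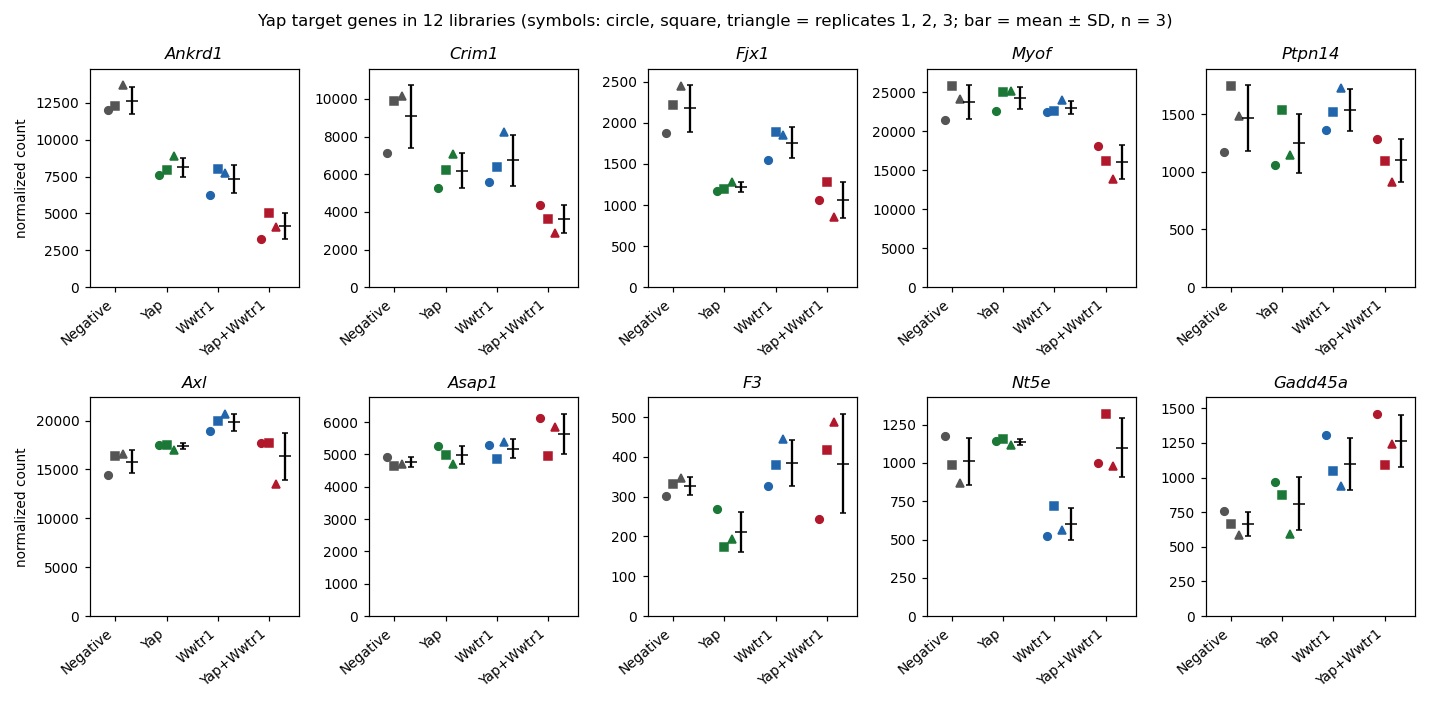
Normalized counts (vertical axes, from 0, a separate scale for each gene) of the 10 target genes in the 12 libraries, with symbols for replicates 1 to 3 and bars for the mean ± SD (n = 3). Ankrd1 sits below its negative siRNA values (12000 to 13737) in every depleted library, Myof leaves its range in the double knockdown alone (13850 to 18116), and Nt5e is lowest after Wwtr1 siRNA (521 to 717).

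**Figure D2:**
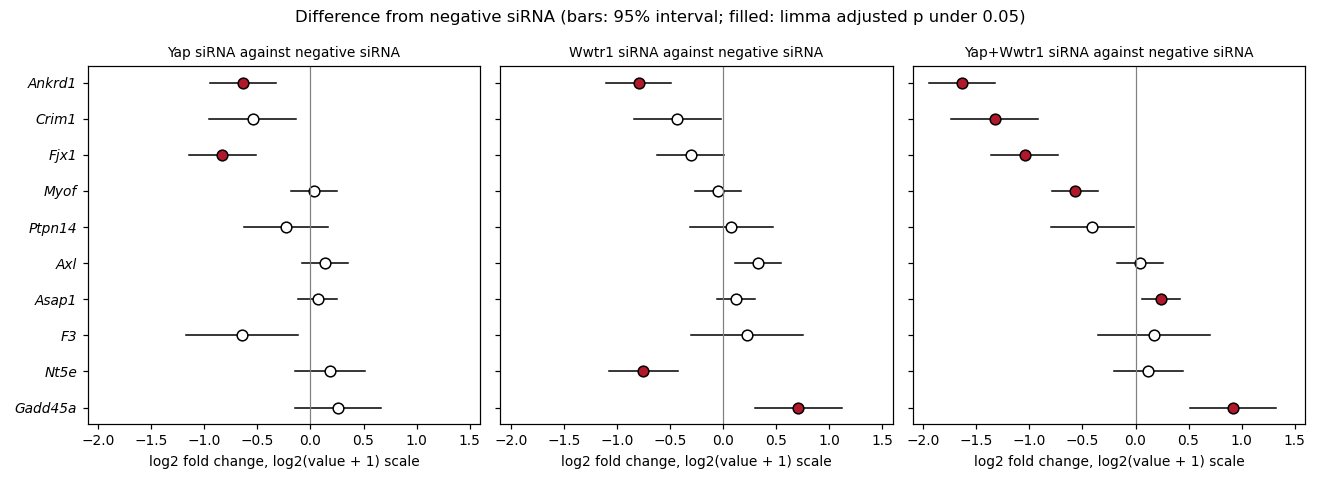
Log2 fold change of each target against negative siRNA (horizontal axis, 95% interval), in 1 panel for each siRNA group, with filled points where the limma adjusted p was under 0.05. The panel of the double knockdown holds 6 filled points, from Ankrd1 at -1.64 to Gadd45a at 0.92, while Axl lies at 0.041.

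RefSeq promoter sequence (GRCr8) was found for 7 of the 10 genes, Axl, Crim1, Fjx1, Gadd45a, Myof, Nt5e and Ptpn14, and not for Ankrd1, Asap1 and F3. The 250 bases before each start were searched on both strands for GGAATG, the core letters that TEAD factors bind. Of the 7 promoters, 1 held a match, that of Ptpn14, at 135 to 130 bases before the start, where 12.1% of all 33469 rat promoters had at least 1. Of 8 other Yap signature genes with a promoter sequence, 4 held a match (Ccn2, Ccn1, Amotl2 and Nuak2). The stretches below are written 5′ to 3′ on the strand of the gene, with matches in capitals (CATTCC is a match on the opposite strand). Ptpn14 is shown as the target that holds a match without passing the test, Ccn2, the connective tissue growth factor gene, as a signature gene with 3 matches, and the others as targets that fell (Crim1, Fjx1, Myof) or rose (Gadd45a) with none. All but the first pair end at the base before the start.
Ptpn14 chr13:103799302-103799421: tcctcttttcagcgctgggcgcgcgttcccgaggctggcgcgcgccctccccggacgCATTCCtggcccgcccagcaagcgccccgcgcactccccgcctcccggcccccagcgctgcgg
Ccn2 chr1:22624681-22624800: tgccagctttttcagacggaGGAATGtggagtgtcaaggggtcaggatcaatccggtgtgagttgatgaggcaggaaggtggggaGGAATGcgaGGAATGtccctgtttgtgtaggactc
Crim1 chr6:22622417-22622536: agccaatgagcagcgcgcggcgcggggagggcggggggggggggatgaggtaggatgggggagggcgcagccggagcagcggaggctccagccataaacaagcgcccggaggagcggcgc
Fjx1 chr3:109231325-109231444: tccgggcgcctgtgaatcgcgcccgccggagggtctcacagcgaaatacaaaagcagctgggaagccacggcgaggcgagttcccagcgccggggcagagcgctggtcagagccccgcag
Myof chr1:245234769-245234888: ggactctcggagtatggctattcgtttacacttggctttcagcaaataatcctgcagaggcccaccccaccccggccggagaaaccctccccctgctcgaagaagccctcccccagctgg
Gadd45a chr4:97486800-97486919: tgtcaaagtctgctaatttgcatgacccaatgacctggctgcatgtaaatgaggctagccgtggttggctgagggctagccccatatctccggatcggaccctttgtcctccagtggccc

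The AP-1 letters TGANTCA, sought because AP-1 often binds beside TEAD factors, were in none of the 7 promoters and in 6.34% of all. The TATA box letters TATAAA were also in none of the 7 and in 12.9% of all. The 7 promoters were rich in G and C, from 58.8% in Myof to 79.2% in Ptpn14, where the median of all promoters was 51.2%. They held 7 CpG dinucleotides in Axl, 10 in Gadd45a, 18 in Myof, 20 each in Crim1, Fjx1 and Nt5e, and 34 in Ptpn14, where the median of all promoters was 5. A match describes letters in this window only, and neither binding nor distal elements were measured.

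Ankrd1 encodes a nuclear and sarcomeric ankyrin repeat cofactor and is among the most used readouts of Yap activity. Its normalized counts were 12000, 12265 and 13737 in negative siRNA cultures, 7596, 7939 and 8876 after Yap siRNA, 6223, 8002 and 7773 after Wwtr1 siRNA, then 3277, 5028 and 4066 in the double knockdown. No depleted library reached the lowest control library, the single knockdowns overlapped each other, and the double knockdown lay below both. The log2 fold change was -0.64 after Yap siRNA (SE 0.14, adjusted p by limma = 0.0293), -0.79 after Wwtr1 siRNA (SE 0.14, adjusted p by limma = 0.00530) and -1.64 in the double knockdown (SE 0.14, adjusted p by limma = 1.66e-05), the last a fall of 67.4% in the mean. Ankrd1 was lower in the double knockdown than after Yap siRNA (-0.999, SE 0.14, adjusted p by limma = 0.00118) or Wwtr1 siRNA (-0.84, SE 0.14, adjusted p by limma = 0.00211). Yap siRNA against Wwtr1 siRNA gave 0.16 (95% interval -0.15 to 0.47, adjusted p by limma = 0.549). The call after Yap siRNA was lost without negative siRNA replicate 1, 2 or 3 or Yap siRNA replicate 1 or 2, at log2 fold changes of -0.68, -0.66, -0.58, -0.59 and -0.62 and adjusted p by limma from 0.0543 to 0.122. Cardiomyocytes also express Ankrd1. Of 8 cardiomyocyte markers 2 rose (Myh6 most, 1.83, SE 0.35, adjusted p by limma = 0.00206) and none was called lower in the double knockdown, where 17.1% of all genes were called higher and 15.6% lower. Their sums overlapped between the double knockdown (69005 to 92921) and negative siRNA cultures (42400 to 74525), and their part in the fall of Ankrd1 was not tested.

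Crim1 encodes a transmembrane protein that binds bone morphogenetic proteins. It measured 7129, 9920 and 10163 normalized counts in the negative siRNA cultures, 5249, 6204 and 7093 after Yap siRNA, 5604, 6377 and 8222 after Wwtr1 siRNA, while the double knockdown held 4343, 3645 and 2867. The double knockdown stood below every other library, and the Wwtr1 siRNA libraries overlapped the controls. Double knockdown changed it by -1.33 on the log2 scale (SE 0.19, adjusted p by limma = 0.000319), where the mean fell by 60.1%. Both single knockdowns missed the threshold, at -0.55 after Yap siRNA (SE 0.19, adjusted p by limma = 0.131) and -0.43 after Wwtr1 siRNA (SE 0.19, adjusted p by limma = 0.193). With the replicate number as a block and the double knockdown libraries left out, both passed, at adjusted p by limma = 0.000360 and 0.00121. The double knockdown differed from Yap siRNA by -0.78 (SE 0.19, adjusted p by limma = 0.0189) and from Wwtr1 siRNA by -0.90 (SE 0.19, adjusted p by limma = 0.00694). The first of these was lost without Yap siRNA replicate 3 (-0.68, adjusted p by limma = 0.0847).

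Fjx1 is the mammalian counterpart of four-jointed, a Golgi kinase that modifies the large cadherins Fat and Dachsous upstream of the Hippo kinases. Its normalized counts were 1880, 2214 and 2446 in negative siRNA cultures, 1166, 1198 and 1286 after Yap siRNA, 1543, 1884 and 1853 after Wwtr1 siRNA, and 1061, 1284 and 849 with both depleted. The libraries fell into a low set, those with Yap depleted alone or together with Wwtr1, and a higher set of Wwtr1 siRNA and control libraries that touched at their edges. Limma put the log2 fold change at -0.83 after Yap siRNA (SE 0.14, adjusted p by limma = 0.00998) and -1.05 in the double knockdown (SE 0.14, adjusted p by limma = 0.000260). After Wwtr1 siRNA it was -0.31 (SE 0.14, adjusted p by limma = 0.224), which passed with the replicate block and without the double knockdown libraries (adjusted p by limma = 0.0130). Fjx1 was lower after Yap siRNA than after Wwtr1 siRNA (-0.53, SE 0.14, adjusted p by limma = 0.0428). The double knockdown was lower than Wwtr1 siRNA (-0.74, SE 0.14, adjusted p by limma = 0.00467), and against Yap siRNA the difference was -0.21 (95% interval -0.53 to 0.10, adjusted p by limma = 0.363). Without negative siRNA replicate 3 or Yap siRNA replicate 1 the call after Yap siRNA was lost, at -0.75 (adjusted p by limma = 0.0522) and -0.80 (adjusted p by limma = 0.0531). The call between the single knockdowns was lost without negative siRNA replicate 2, any Yap siRNA library, Wwtr1 siRNA replicate 2 or 3 or double knockdown replicate 1 (-0.57 to -0.48, adjusted p by limma from 0.0513 to 0.146).

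Myof encodes myoferlin, a ferlin of the plasma membrane with roles in membrane repair and receptor recycling. It held 21478, 25776 and 24144 normalized counts in the negative siRNA cultures, 22659, 24999 and 25182 after Yap siRNA, 22508, 22555 and 23985 after Wwtr1 siRNA, and 18116, 16177 and 13850 with both depleted. The 9 other libraries overlapped among themselves, and the double knockdown lay below all of them. The change on the log2 scale was 0.031 after Yap siRNA (95% interval -0.18 to 0.25, adjusted p by limma = 0.904), -0.045 after Wwtr1 siRNA (95% interval -0.26 to 0.17, adjusted p by limma = 0.828) and -0.57 in the double knockdown (SE 0.10, adjusted p by limma = 0.00113). Myof was also lower in the double knockdown than after Yap siRNA (-0.60, adjusted p by limma = 0.00266) or Wwtr1 siRNA (-0.53, adjusted p by limma = 0.00375). The interaction, the double knockdown's effect less the sum of both single effects, was -0.56 (SE 0.14, adjusted p by limma = 0.0806, unadjusted p = 0.00181).

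Double knockdown replicate 3, in which the most Yap1 and Wwtr1 remained, held the lowest Crim1, Fjx1, Myof, Axl, Nt5e and Ptpn14 of its group and the highest F3. The 8 macrophage markers summed to 44352 in that library, against 6531 and 13052 in the others of the group and 20612 to 29640 in negative siRNA cultures, and their part in these values was not tested. Without it the double knockdown's log2 fold changes were -1.64 for Ankrd1, -1.17 for Crim1, -0.89 for Fjx1 and -0.47 for Myof, and all 4 still passed. The summed smooth muscle markers were 410160 to 549306 in negative siRNA cultures and 142975 to 280342 in the double knockdown. There 2 of 5 were called lower (lowest Acta2, at -1.18, SE 0.23, adjusted p by limma = 0.00243), where 15.6% of all genes were. The part of these markers in the fall of these 4 genes was not tested.

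Ptpn14 encodes a phosphatase that binds Yap and can hold it in the cytoplasm, so it is both a target and a restraint. Its normalized counts were 1169, 1746 and 1481 in negative siRNA cultures, 1060, 1539 and 1146 after Yap siRNA, 1362, 1517 and 1729 after Wwtr1 siRNA, and 1287, 1098 and 913 with both depleted. Every group overlapped the controls. On the log2 scale the change was -0.23 after Yap siRNA (adjusted p by limma = 0.527), 0.080 after Wwtr1 siRNA (adjusted p by limma = 0.831) and -0.41 in the double knockdown (95% interval -0.80 to -0.018, adjusted p by limma = 0.102). The last passed without negative siRNA replicate 1 (-0.56, adjusted p by limma = 0.0414).

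Axl is a receptor tyrosine kinase activated by Gas6. It held 14429, 16360 and 16539 normalized counts in the negative siRNA cultures, 17516, 17544 and 17000 after Yap siRNA, 18954, 19919 and 20673 after Wwtr1 siRNA, and 17738, 17734 and 13526 with both depleted. The Wwtr1 siRNA libraries were above all others, and the double knockdown spread across the controls. The fitted log2 fold change was 0.14 after Yap siRNA (adjusted p by limma = 0.484), 0.33 after Wwtr1 siRNA (SE 0.10, adjusted p by limma = 0.0596) and 0.041 in the double knockdown (95% interval -0.18 to 0.26, adjusted p by limma = 0.784). The value after Wwtr1 siRNA passed with the replicate block and without the double knockdown libraries (adjusted p by limma = 0.00185), and without double knockdown replicate 3 alone (adjusted p by limma = 0.00761). The difference between double knockdown and Wwtr1 siRNA was -0.29 (SE 0.10, adjusted p by limma = 0.0589), and it passed without double knockdown replicate 1 or 2 (-0.36 in each, adjusted p by limma = 0.0458 and 0.0472). Gas6 itself gave -0.069 in the double knockdown (SE 0.12, adjusted p by limma = 0.707), and was named after its values were seen.

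Asap1 encodes an Arf GTPase-activating protein of focal adhesions. Its libraries held 4932, 4633 and 4701 normalized counts in the negative siRNA cultures, 5270, 4982 and 4694 after Yap siRNA, 5294, 4860 and 5387 after Wwtr1 siRNA, and 6126, 4939 and 5849 with both depleted. The lowest double knockdown library and the highest control were nearly equal. The log2 fold change in the double knockdown was 0.24 (SE 0.084, adjusted p by limma = 0.0453), the smallest among the 6 called. It was lost in 9 of 12 fits that left out 1 library (kept without Yap siRNA replicate 1 or 3 or double knockdown replicate 2), with log2 fold changes from 0.18 to 0.27 and adjusted p by limma up to 0.164 in those 9. The values after Yap siRNA (0.066, adjusted p by limma = 0.720) and Wwtr1 siRNA (0.12, adjusted p by limma = 0.416) did not pass.

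F3 encodes tissue factor, the surface receptor that starts coagulation, and was covered by the fewest reads of the 10. The values were 303, 331 and 346 in negative siRNA cultures, 268, 173 and 193 after Yap siRNA, 328, 381 and 445 after Wwtr1 siRNA, and 245, 416 and 489 with both depleted. The Yap siRNA libraries lay below those of the controls and of Wwtr1 siRNA, and the double knockdown spanned the range from Yap siRNA to above Wwtr1 siRNA. The log2 fold change after Yap siRNA was -0.65 (SE 0.24, adjusted p by limma = 0.159), which passed with the replicate block and without the double knockdown libraries (adjusted p by limma = 0.0296). After Wwtr1 siRNA it was 0.23 (adjusted p by limma = 0.623), and in the double knockdown 0.17 (95% interval -0.35 to 0.70, adjusted p by limma = 0.621). F3 was lower after Yap siRNA than after Wwtr1 siRNA (-0.87, SE 0.24, adjusted p by limma = 0.0442) and higher in the double knockdown than after Yap siRNA (0.82, SE 0.24, adjusted p by limma = 0.0426), although the latter ranges overlapped. The first call was kept only without Yap siRNA replicate 1 or double knockdown replicate 1 or 3 (elsewhere adjusted p by limma from 0.0550 to 0.142), and the second only without Yap siRNA replicate 1, Wwtr1 siRNA replicate 3 or double knockdown replicate 1 (elsewhere from 0.0504 to 0.135).

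Nt5e encodes CD73, the surface enzyme that makes adenosine from AMP. It held 1177, 984 and 870 normalized counts in the negative siRNA cultures, 1141, 1156 and 1114 after Yap siRNA, 521, 717 and 565 after Wwtr1 siRNA, and 999, 1322 and 982 with both depleted. The Wwtr1 siRNA libraries lay below all the others, which overlapped among themselves. Expressed as log2 fold change, it was -0.75 after Wwtr1 siRNA (SE 0.15, adjusted p by limma = 0.00941), a fall of 40.5% in the mean. It was 0.18 after Yap siRNA (95% interval -0.15 to 0.51, adjusted p by limma = 0.558) and 0.12 in the double knockdown (95% interval -0.21 to 0.45, adjusted p by limma = 0.577). Nt5e was higher after Yap siRNA (0.93, SE 0.15, adjusted p by limma = 0.00417) and in the double knockdown (0.87, SE 0.15, adjusted p by limma = 0.00246) than after Wwtr1 siRNA. The interaction was 0.69 (SE 0.21, adjusted p by limma = 0.154, unadjusted p = 0.00712). Among genes around CD73, the adenosine receptor Adora2a gave the largest rise of the 13 listed ligands, receptors and partners of the targets in the double knockdown (2.12, SE 0.40, adjusted p by limma = 0.00177). Of the 13, 4 rose and 2 fell there (46.2%, against 32.8% of all genes), with the thrombin receptor F2r lowest (-0.75, SE 0.10, adjusted p by limma = 0.000221). After Yap siRNA 1 of the 13 rose (7.69%, against 4.8% of all genes called). After Wwtr1 siRNA none was called, where 8.96% of all genes were. There 3 of the 13 had an unadjusted limma p under 0.05, as did 2834 of all 11871 genes.

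Gadd45a, a growth arrest and DNA damage gene induced by p53, moved the opposite way to the targets that fell. Its normalized counts were 756, 664 and 582 in negative siRNA cultures, 967, 871 and 595 after Yap siRNA, 1305, 1046 and 940 after Wwtr1 siRNA, and 1461, 1090 and 1242 with both depleted. The Wwtr1 siRNA and double knockdown libraries were above every control, and the Yap siRNA libraries overlapped the controls. In log2 units the change was 0.71 after Wwtr1 siRNA (SE 0.19, adjusted p by limma = 0.0360), 0.92 in the double knockdown (SE 0.19, adjusted p by limma = 0.00304) and 0.26 after Yap siRNA (SE 0.19, adjusted p by limma = 0.491). Gadd45a was higher in the double knockdown than after Yap siRNA (0.66, SE 0.19, adjusted p by limma = 0.0377). Yap siRNA against Wwtr1 siRNA gave -0.45 (SE 0.19, adjusted p by limma = 0.161), which passed with the replicate block and without the double knockdown libraries (adjusted p by limma = 0.00704). The call after Wwtr1 siRNA was lost without negative siRNA replicate 2 or 3 or Wwtr1 siRNA replicate 1 or 2 (0.71, 0.62, 0.58 and 0.74, adjusted p by limma from 0.0872 to 0.141), and in a fit without a variance trend (adjusted p by limma = 0.0642). The call between double knockdown and Yap siRNA was lost without negative siRNA replicate 2, Yap siRNA replicate 2 or 3, Wwtr1 siRNA replicate 2 or double knockdown replicate 1 or 3 (0.45 to 0.73, adjusted p by limma from 0.0509 to 0.142).

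In the double knockdown both relatives of Gadd45a fell while it rose. Gadd45b went from 1425, 1199 and 1458 normalized counts in the negative siRNA cultures to 681, 681 and 735 in the double knockdown, a log2 fold change of -0.95 (SE 0.093, adjusted p by limma = 3.20e-05). Its change was -0.69 after Yap siRNA (SE 0.093, adjusted p by limma = 0.00392) and -0.26 after Wwtr1 siRNA (SE 0.093, adjusted p by limma = 0.113). Gadd45g, named after its values were seen, fell in all 3, by 0.79 on the log2 scale after Yap siRNA (adjusted p by limma = 0.0149), by 0.74 after Wwtr1 siRNA (adjusted p by limma = 0.0105) and by 0.90 in the double knockdown (adjusted p by limma = 0.000966). These were the only 2 called in the double knockdown among 7 listed relatives of the targets found in the table (28.6%, against 32.8% of all genes), and the highest of the 7 was the Axl relative Mertk (0.33, SE 0.26, adjusted p by limma = 0.361).

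**Figure D3:**
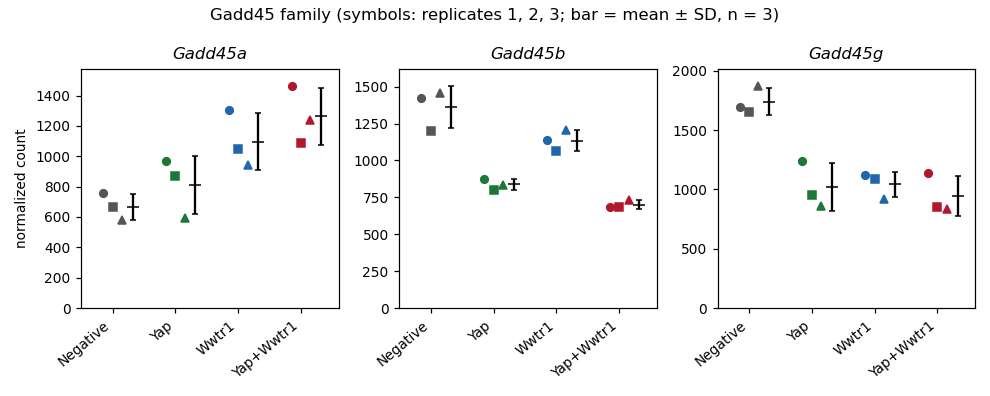
Normalized counts (vertical axes, from 0) of Gadd45a, Gadd45b and Gadd45g in the 4 siRNA groups, with symbols for replicates 1 to 3 and bars for the mean ± SD (n = 3). In the double knockdown Gadd45a (1090 to 1461) is above and Gadd45b (681 to 735) below every control library.

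Of 10 other listed genes induced by p53, 4 were called in the double knockdown, against 32.8% of all genes. Of these, 1 rose, the antiproliferative gene Btg2 (0.91, SE 0.13, adjusted p by limma = 0.000264), and 3 fell, with the kinase Plk2 lowest (-1.41, SE 0.16, adjusted p by limma = 8.87e-05). The median log2 fold change of the 10 was -0.16. In this list 2 were called after Wwtr1 siRNA, 1 in each direction, where 8.96% of all genes were called. None was called after Yap siRNA, where 4.8% of all genes were. There 3 of the 10 had an unadjusted limma p under 0.05, as did 2342 of all 11871 genes. Of 7 genes of the integrated stress response, 2 rose and 4 fell in the double knockdown (85.7% called, against 32.8% of all genes). They ran from the glutathione-degrading enzyme Chac1 (-0.84, SE 0.15, adjusted p by limma = 0.00137) to the stress transcription factor Ddit3 (1.33, SE 0.21, adjusted p by limma = 0.000539). After Yap siRNA 1 of the 7 fell (14.3%, against 4.8% of all genes called), and after Wwtr1 siRNA 2 rose (28.6%, against 8.96%).

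Setting the depleted groups against each other separated the targets in several ways. Between Yap siRNA and Wwtr1 siRNA 3 of 10 passed (Fjx1, F3 and Nt5e), where 8.79% of all genes did. With the replicate block and without the double knockdown libraries 5 passed, where 23% of all genes did. Added there were Axl (-0.19, adjusted p by limma = 0.0302) and Gadd45a (-0.45, adjusted p by limma = 0.00704). Between the double knockdown and Yap siRNA 5 passed, against 13.8% of all genes, and between the double knockdown and Wwtr1 siRNA 5 passed, against 19.9%. Ankrd1, Crim1 and Myof were lower in the double knockdown than in either single knockdown.

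**Figure D4:**
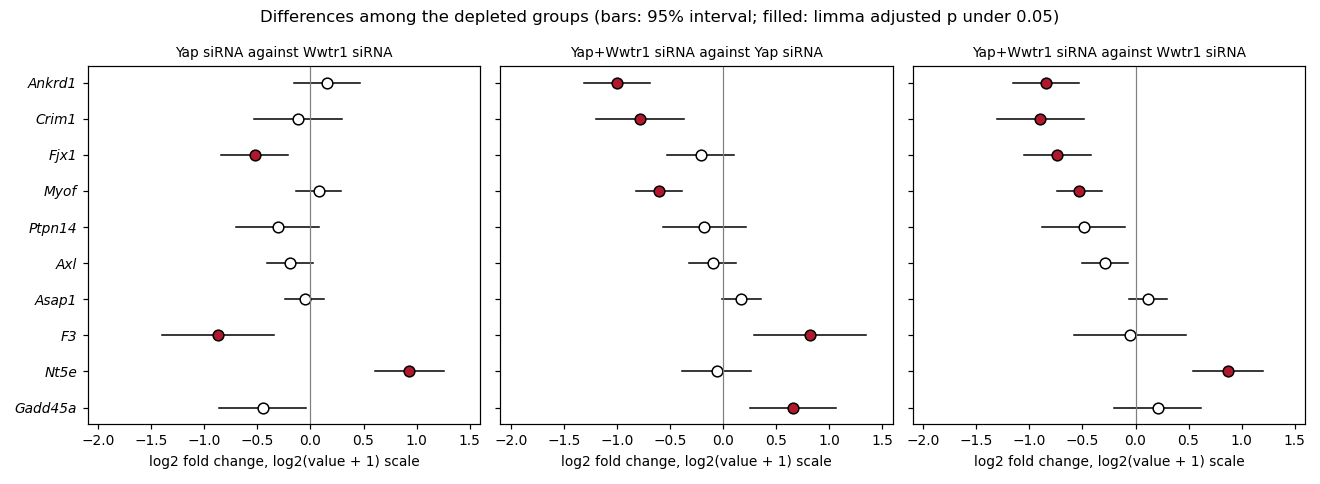
Log2 fold change of each target between depleted groups (horizontal axis, 95% interval), with filled points where the limma adjusted p was under 0.05. Ankrd1, Crim1 and Myof are filled and to the left of 0 in both panels of the double knockdown, and Nt5e lies at 0.93 between Yap siRNA and Wwtr1 siRNA.

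The effect of the double knockdown was also set against the sum of the single effects. For Ankrd1 the sum was -1.43 and the double knockdown -1.64, for Crim1 -0.98 and -1.33, for Fjx1 -1.14 and -1.05, and for Gadd45a 0.97 and 0.92. By limma none of the 10 had an interaction that passed, where 1.03% of all genes did. An unadjusted limma p under 0.05 was seen in 3 of the 10 (Myof, Nt5e and Axl) and in 1663 of all 11871 genes. For Axl the interaction was -0.43 (SE 0.14, adjusted p by limma = 0.186). The 95% intervals of the interaction ran from -0.64 to 0.23 for Ankrd1, from -0.94 to 0.23 for Crim1 and from -0.35 to 0.54 for Fjx1, so differences from the sum of that size were not resolved with 3 libraries a group.

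Of 12 other genes of the Yap signature, 9 were in the table. Of the 9, 6 fell after Yap siRNA, none was called after Wwtr1 siRNA and 7 fell in the double knockdown, with none higher in any of the 3. Of all genes 1.78%, 3.96% and 15.6% were called lower in these comparisons. After Wwtr1 siRNA 5 of the 9 had an unadjusted limma p under 0.05, as did 2834 of all 11871 genes. With the replicate block and without the double knockdown libraries, 6 passed after Yap siRNA and 7 after Wwtr1 siRNA. The count of 6 after Yap siRNA became 2 without negative siRNA replicate 1, and 1 without negative siRNA replicate 2 or 3, Yap siRNA replicate 1 or 2, or Wwtr1 siRNA replicate 2. In these fits 0.935% to 2.87% of all genes were called. The log2 fold change of Ccn2 after Yap siRNA was -0.81 with all libraries and -0.88, -0.83 and -0.70 without negative siRNA replicate 1, 2 and 3. The median log2 fold change of these listed genes was -0.52, -0.40 and -1.38. The largest falls in the double knockdown were those of Ccn2 (-1.85, SE 0.19, adjusted p by limma = 3.93e-05), Amotl2, which binds Yap at junctions (-1.72, SE 0.11, adjusted p by limma = 4.55e-06), and Ccn1 (-1.63, SE 0.13, adjusted p by limma = 9.76e-06). The 3 least lowered were Dock5 (-0.81, SE 0.13, adjusted p by limma = 0.000612), Igfbp3 (-0.57, SE 0.38, adjusted p by limma = 0.278) and Ccdc80 (-0.086, SE 0.18, adjusted p by limma = 0.745). Igfbp3 held 3432 and 3805 normalized counts in double knockdown replicates 1 and 2 and 13382 in replicate 3, against 7239 to 8881 in negative siRNA cultures. Without replicate 3 it passed at -1.20 (SE 0.12, adjusted p by limma = 4.83e-05) and Ccdc80 at -0.34 (SE 0.11, adjusted p by limma = 0.0257), so that all 9 were lower. Among the 10 targets the fall of Ankrd1 (-1.64) was nearest to those of Ccn2, Amotl2 and Ccn1. The list of coactivators and TEAD-related factors had 6 genes in the table, of which 3 fell and 1 rose in the double knockdown, against 32.8% of all genes called. The falls include Yap1 and Wwtr1 themselves, which the siRNAs target, and Tead2, named after its values were seen (-0.39, SE 0.12, adjusted p by limma = 0.0287). The gene that rose was the TEAD-binding repressor Vgll4 (0.50, SE 0.12, adjusted p by limma = 0.00704).

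The spread between replicates differed among the targets. With negative siRNA the coefficient of variation ran from 3.29% in Asap1 to 19.7% in Ptpn14, and in the double knockdown from 11.0% in Asap1 to 32.7% in F3. For all targets but Ankrd1 and Myof, the genes most like them in pattern over the 12 libraries, taken from genes whose mean reached 100 normalized counts, are given as a description by Pearson's r, over libraries that share their groups. The closest pairs were Uck2 and Mprip (0.98 each) for Crim1 and Gcsh (0.98) and Sorbs2 (0.97) for Fjx1. For Gadd45a they were Klf15 and Magi2 (0.96 each), for Axl Enpp1 (0.96) and Nipal4 (0.95), for Ptpn14 Kif21b (0.94) and Kif3a (0.92), and for F3 Cnot9 (0.93) and Alg12 (0.87). Nt5e was closest to Slc4a3 (0.92) and Chsy1 (0.90), and Asap1 to Cdk20 (0.91) and Rpp25l (0.90).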

How the data were processed

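RNA from 12 cultures of neonatal rat cardiac fibroblasts, 4 siRNA groups of 3, was sequenced. The authors trimmed reads with Trim Galore 0.6.5, aligned them with HISAT2 to rn6, assembled transcripts with StringTie2 and normalized gene counts with DESeq2. The deposited signal values are gene read counts divided by a size factor per library. All 147252 values were whole multiples of a library's step (tolerance 0.001), and divided by that step they summed to 33.9 M to 41.1 M reads per library.

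Tables of the authors' own fold changes and p-values, and a further copy of the normalized table, were not used. Groups were taken from the sample labels. Values were tested as log2(normalized count + 1) in limma 3.58.1 (R 4.3.3), in 1 fit over all 12 libraries with a mean-variance trend, for the 11871 genes with a mean of at least 10. Tests were two-sided, with Benjamini-Hochberg adjustment over all genes and a threshold of 0.05, and the fit was tested on simulated data. All 10 targets were named, with the 3 highest and 3 lowest other signature genes and the highest and lowest gene of each other list in the double knockdown. The targets and lists were chosen with earlier results of these data known.

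Deviations from the group means correlated by 0.104 to 0.276 between same-numbered libraries of the negative, Yap and Wwtr1 siRNA groups (9 pairs), all positive. These numbers were taken to pair the samples of those groups (the study names separate litters). With those of the double knockdown the range was -0.127 to 0.180 (9 pairs). These were positive with Wwtr1 siRNA (0.180, 0.068 and 0.088) and of both signs with the other groups. Whether the double knockdown's numbers name the same litters is not settled by these values. The main fit used no block. Within groups the libraries varied beyond sampling noise (chi-square per gene of at least 19.7). Alternatives varied the pseudocount, filter, scaling, variance trend, replicate block, groups fitted and libraries. Promoter sequences came from RefSeq GRCr8, matched by symbol. Cell type lists were checked in each library. The genes most like Ankrd1 and Myof in pattern are not reported here.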

Additional observations from a re-analysis of the deposited data

How the results depend on the processing

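Without the variance trend limma called 1 target with Yap siRNA (2.48% of all genes), 1 between the single knockdowns (6.87%) and 3 between double knockdown and Yap siRNA (11.2%), and 1 other signature gene with Yap siRNA, and Gadd45a lost its call with Wwtr1 siRNA (adjusted p = 0.0642). Fitting only the groups compared gave 3 targets between double knockdown and Yap siRNA (6.45% of all genes), 2 other signature genes with Wwtr1 siRNA and a call for Axl with Wwtr1 siRNA (adjusted p = 0.0260). Upper-quartile scaling called Axl between double knockdown and Wwtr1 siRNA (adjusted p = 0.0443). The replicate block over all libraries gave 1 other signature gene with Wwtr1 siRNA and a call for Gadd45a between the single knockdowns (adjusted p = 0.0387). The same replicate block fitted without double knockdown libraries called 4 targets with Yap siRNA, 6 with Wwtr1 siRNA and 5 between them, and 7 other signature genes with Wwtr1 siRNA, where 16.3% and 21.7% of all genes were called with Yap and Wwtr1 siRNA and 23% between them. Neither block changed another call of a target. Leaving out 1 library gave 0 to 2 targets with Yap siRNA (0.935% to 6.47% of all genes), 2 to 4 with Wwtr1 siRNA (4.62% to 12%), 5 to 6 in the double knockdown (23.1% to 34.2%), 1 to 3 between single knockdowns (3.66% to 11.9%), 2 to 5 between double knockdown and Yap siRNA (6.32% to 15.8%), 5 to 6 between double knockdown and Wwtr1 siRNA (10.9% to 19.7%) and 0 for the interaction (0.261% to 1.35%), and 1 to 6, 0 to 1 and 7 to 9 other signature genes with Yap siRNA, Wwtr1 siRNA and both. The double knockdown calls of Ankrd1, Crim1, Fjx1, Myof and Gadd45a passed in all 12 of these fits. Log2 values that changed sign, none of them called, ranged over these fits from -0.024 to 0.17 (Axl), -0.031 to 0.47 (F3) and -0.018 to 0.24 (Nt5e) in the double knockdown, -0.16 to 0.032 (Axl) and -0.20 to 0.015 (Nt5e) between it and Yap siRNA, -0.26 to 0.24 (F3) between it and Wwtr1 siRNA, -0.12 to 0.015 (Myof) and -0.073 to 0.22 (Ptpn14) with Wwtr1 siRNA, -0.041 to 0.091 (Myof) with Yap siRNA, -0.24 to 0.037 (Crim1) between single knockdowns, and -0.012 to 0.14 (Asap1), -0.051 to 0.25 (Fjx1) and -0.26 to 0.090 (Gadd45a) for the interaction. The call of Asap1 in the double knockdown was lost with TMM (adjusted p = 0.0533) or upper-quartile scaling (0.0884), without the trend (0.0704) and with only the groups compared (0.0976). The causes were not tested. The alternatives with edgeR and DESeq2 were not run. With 3 libraries a group, small changes could not be resolved, and the fewest reads taken to lie behind a target's value were 162.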
